A study of Mus musculus with 6 samples.

Results

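The Notch genes described here are 10 genes: the receptors Notch1, Notch2 and Notch3, the Jagged ligands Jag1 and Jag2, the transcriptional repressors Hes1, Hey1, Hey2 and Heyl, and the feedback regulator Nrarp. They were found by gene symbol among the 57180 rows of the count table, and all 10 had a row. The set was chosen by pathway role and by measured counts of Hes1 and Jag1, which were known to be lower after photodynamic therapy. The values of the members in that comparison are therefore a description and carry no test.

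The libraries came from murine 10T1/2 cells, a clonal mesenchymal line that can take on fibroblast, muscle and other fates. There were 3 libraries from cells given photodynamic therapy (PDT) and 3 from control cells given PBS, stated to be biological replicates. PDT cells received Ce6@D4-EV, which are midkine (MDK)-targeted extracellular vesicles that carry the photosensitiser chlorin e6, and were then irradiated with light. Both groups had first received TGF-β (5 ng per mL) as a model of cancer-associated fibroblasts. Responses to vesicles, dye, light and PBS cannot be told apart in this design, and cells without TGF-β were not analysed here. The sources used here do not say whether separate cultures were used, whether PBS cells were irradiated or when RNA was taken, so errors measure the spread between these samples. In bulk RNA, fewer expressing cells and less RNA per cell cannot be told apart.

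Notch receptors are single-pass membrane proteins that are activated by Jagged or Delta-like ligands on a neighbouring cell. Binding exposes the receptor to ADAM proteases and then to γ-secretase, which releases the intracellular domain. This domain enters the nucleus, joins the DNA-binding protein RBPJ and a Mastermind coactivator, and turns on genes such as those of the HES and HEY repressors. TGF-β is known to induce Jag1 and Hey1 in epithelial cells, and Notch3 is best known from the mural cells of blood vessels.

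Totals ran from 88669946 to 99527847 counts in PDT libraries and from 83195529 to 86558216 in PBS libraries. Levels are normalised read counts (CPM, scaled by TMM) with SD over 3 libraries, and fold changes are PDT over PBS with their SE. A count of 0 allows up to 3 counts, or 0.0298 to 0.0368 CPM by library, counting error only. Of the fibroblast markers, Col1a1, Col1a2 and Vim were abundant, while Thy1, Lum and Dcn were rare and Fap had 0 counts in every library. Of 8 tested fibroblast markers 5 were called lower and 1, Dcn, higher in PDT, at 1.31 CPM in PDT and 0.603 CPM in PBS on average. Of all tested genes, 17.5% were called lower and 18.7% higher in PDT. The summed level of the 9 fibroblast markers was 11581 to 12036 CPM in PDT libraries and 19555 to 20369 CPM in PBS libraries. Nearly all of it was Col1a1 (2428 CPM in PDT and 6025 CPM in PBS on average), Col1a2 (3954 and 7463) and Vim (4981 and 6019). The 8 endothelial markers together reached 0.736 to 1.04 CPM in PDT libraries and 0.870 to 1.70 CPM in PBS libraries, and Kdr, Tie1 and Emcn had 0 counts throughout. The 6 leukocyte markers summed to 1.41 to 1.51 CPM in PDT libraries and 0.831 to 0.902 CPM in PBS libraries. The 5 epithelial markers summed to 0.566 to 0.579 CPM in PDT libraries and 0.699 to 1.31 CPM in PBS libraries. Ptprc and Epcam were at 0. Of 2 tested endothelial markers Tek was called lower in PDT. Cd68, the only tested leukocyte marker, was called higher, and Cdh1, the only tested epithelial marker, was not called.

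The promoters of Jag1, Hey2 and Notch3 are shown because their transcripts differed most among the members that have a RefSeq promoter window. Such windows (RefSeq, build GRCm38.p6) were found for 7 of the 10 members, and Hes1, Hey1 and Heyl had no entry. Each is printed on the gene's strand, ending before the first annotated exon of the gene. Capitals mark the core RBPJ motif TGGGAA or the SMAD core CAGAC, on either strand, where TTCCCA and GTCTG are the reverse complements. The stretches lie at chr2:137116645-137116770 (minus strand) for Jag1, chr10:30842802-30843033 (minus strand) for Hey2 and chr17:32166891-32167140 (minus strand) for Notch3.
Jag1: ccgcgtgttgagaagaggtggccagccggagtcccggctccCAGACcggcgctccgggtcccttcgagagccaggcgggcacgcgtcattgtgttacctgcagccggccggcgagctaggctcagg
Hey2: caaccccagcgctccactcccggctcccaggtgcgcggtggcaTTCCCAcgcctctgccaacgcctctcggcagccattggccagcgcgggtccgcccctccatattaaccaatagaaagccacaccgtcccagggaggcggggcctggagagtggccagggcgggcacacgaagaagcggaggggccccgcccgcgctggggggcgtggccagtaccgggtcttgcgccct
Notch3: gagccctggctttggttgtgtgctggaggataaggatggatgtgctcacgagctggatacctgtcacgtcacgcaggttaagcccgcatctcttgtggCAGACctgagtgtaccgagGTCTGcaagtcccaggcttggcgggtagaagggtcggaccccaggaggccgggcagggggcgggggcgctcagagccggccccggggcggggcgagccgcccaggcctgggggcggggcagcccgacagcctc

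Among the 7 windows of 250 bases before the start site, only that of Hey2 held the RBPJ core, on the minus strand of the gene at 207 to 202 bases before the start. Of 32851 RefSeq windows of this length, 21.6% held that core. The SMAD core was in the windows of Jag1 (1 match), Notch3 (2 matches) and Nrarp (4 matches), and in 42.2% of all windows. The E-box CACGTG, of a kind that HEY proteins bind, was in the Nrarp window and in 6.02% of all windows. The motifs do not overlap each other in these windows, and a match describes the letters and not a bound site.

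Hes1, Hey1 and Hey2 were lower in PDT, the most abundant ligand gene was lower, and the receptor genes differed from each other in direction. Of the 10 members, 8 passed the filter on low counts. Of these 8, 6 were called at an adjusted p under 0.05 by edgeR's quasi-likelihood test with Benjamini-Hochberg adjustment over all genes, 1 higher in PDT (Notch3) and 5 lower (Notch2, Jag1, Hes1, Hey1 and Hey2). Among all 17635 tested genes 36.1% were called, 18.7% higher and 17.5% lower in PDT. Hey1 and Hey2 passed the filter through their PBS libraries. Since this comparison was in view when the genes were chosen, nothing is read from their count.

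Among the receptors, which receive the signal, Notch2 was the most abundant. Notch2 had 75.0, 72.6 and 73.4 CPM in PDT libraries, against 92.6, 93.8 and 91.0 CPM in PBS libraries. All 3 PDT libraries were below all 3 PBS libraries, and both groups were tight. The log2 fold change was -0.33 ± 0.04, which is 1.25-fold lower in PDT. It was smaller, -0.22 ± 0.04, with offsets for transcript length and GC content.

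Notch1 had 43.3, 43.9 and 43.7 CPM in PDT libraries, against 45.5, 47.5 and 41.1 CPM in PBS libraries. The PDT libraries lay close together and inside the range of the PBS libraries, of which replicate 3 was the lowest. The log2 fold change was -0.03 ± 0.06, smaller than the spread, and its sign changed with scaling by library size only (0.01), with offsets for transcript length and GC content (0.05) and without PBS replicate 2 (0.01).

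Notch3 had 6.71, 6.85 and 5.81 CPM in PDT libraries, against 4.03, 4.19 and 4.35 CPM in PBS libraries. Every PDT library was above every PBS library, and PDT replicate 3 was the nearest to them. The log2 fold change was 0.62 ± 0.10, which is 1.54-fold higher in PDT, and it was 0.69 without PDT replicate 3. Of 6 markers of mural cells 4 were tested, and 0 were called higher and 3 lower in PDT (Rgs5, Cspg4 and Mcam). Rgs5 was rare, with 4, 0 and 4 counts in PDT libraries and 24, 10 and 21 in PBS libraries. It passed the filter through its PBS libraries, so its call is not read further. Des was not called, with a log2 fold change of 0.29 ± 0.15. Over all tested genes, 18.7% were called higher and 17.5% lower. The sum of the mural markers was 164 to 178 CPM in PDT libraries and 248 CPM in PBS libraries. Nearly all of it was Cspg4 (166 CPM in PDT and 240 CPM in PBS on average). The part of mural markers in the values of Notch3 was not tested.

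**Figure D1:**
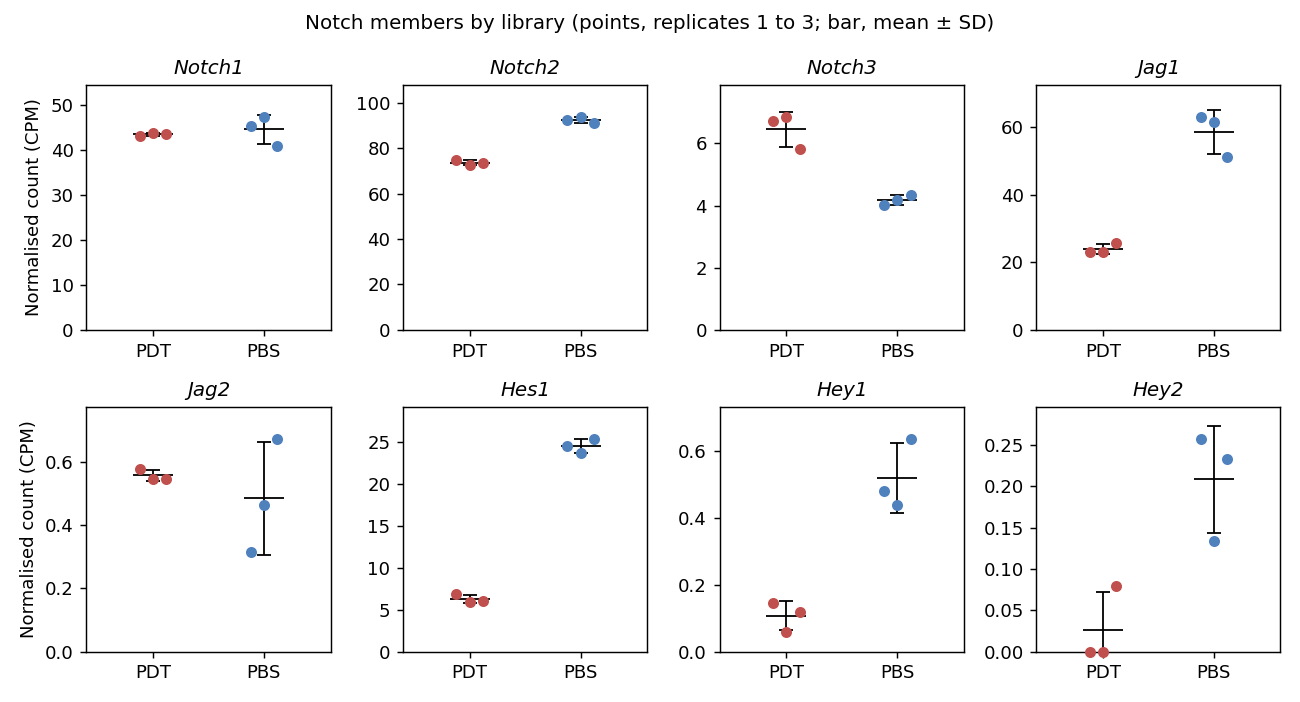
Normalised counts (CPM) of the 8 tested members in each PDT and PBS library, with 1 panel per gene and axes that start at 0. Points are replicates 1 to 3 from left to right and the bar is the mean ± SD (n = 3). The PDT and PBS points do not overlap for Notch2, Notch3, Jag1, Hes1, Hey1 and Hey2, and they overlap for Notch1 and Jag2.

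Among the ligands, Jag1 had 23.1, 23.1 and 25.6 CPM in PDT libraries, against 63.0, 61.5 and 51.2 CPM in PBS libraries. The groups lay far apart, although PBS replicate 3 was the lowest of its group and PDT replicate 3 the highest of its own. The log2 fold change was -1.29 ± 0.08, or 2.45-fold lower in PDT. It ran from -1.38 without PBS replicate 3 to -1.23 without PBS replicate 1, the widest range over 14 other settings and left-out libraries.

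Jag2 was a rare transcript in these cells. Its counts were 52, 55 and 55 in PDT libraries and 27, 38 and 55 in PBS libraries, that is 0.579, 0.547 and 0.547 CPM against 0.316, 0.465 and 0.674 CPM. The PBS libraries spread around the PDT libraries, which were nearly equal to each other. The log2 fold change of 0.20 ± 0.31 was smaller than its error, and it was -0.03 without PBS replicate 1 and 0.51 without PBS replicate 3. No difference in Jag2 beyond the spread between libraries was seen.

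Among the target genes, Hes1, a basic helix-loop-helix repressor, was the target with the most counts. Its counts were 615, 592 and 611 in PDT libraries and 2094, 1934 and 2073 in PBS libraries. In CPM these were 6.85, 5.89 and 6.07 in PDT, against 24.5, 23.6 and 25.4 in PBS. Libraries of 1 group differed little, and the groups were separated by far more than their spread. The log2 fold change was -1.97 ± 0.08, which is 3.91-fold lower in PDT. Among the 17635 tested genes this was the 107th lowest log2 fold change, and that of Jag1 was the 346th lowest. Both genes were known to be lower in PDT when the set was chosen, so these ranks are a description only.

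Hey1 and Hey2, related repressors with roles in heart and vessel development, were near the limit of detection. Hey1 had 13, 6 and 12 counts in PDT libraries and 41, 36 and 52 counts in PBS libraries, or 0.145, 0.0597 and 0.119 CPM against 0.481, 0.440 and 0.637 CPM. All PDT libraries were below all PBS libraries, and the log2 fold change was -2.26 ± 0.41, 4.79-fold lower in PDT. Without 1 library at a time it ran from -2.52 to -1.97.

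Hey2 had 0, 0 and 8 counts in PDT libraries and 22, 11 and 19 counts in PBS libraries, which is 0, 0 and 0.0795 CPM against 0.258, 0.134 and 0.233 CPM. The groups did not overlap, but PDT replicate 3 held all of the PDT counts. The fitted log2 fold change was -2.88 ± 0.95, and it was -2.36 without PDT replicate 1 and -2.31 without PDT replicate 2, where the call was lost. The call was also lost without any 1 of the PBS libraries and without a filter on low counts. Without PDT replicate 3, both remaining PDT libraries were at 0. With 3 counts per library as the floor, these 2 libraries lay at least 6.24-fold below the PBS mean of 0.208 CPM (SD 0.065). This value leaves out the only PDT library with counts and the spread of the PBS libraries, so it is not a bound for the PDT group.

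Heyl, the third HEY gene, had 0 counts in all 6 libraries. Nrarp, a small ankyrin repeat protein that restrains Notch signalling, had 4 counts in PDT replicate 1 and 0 in the other 5 libraries. Neither was tested, and no fold is given for either.

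**Figure D2:**
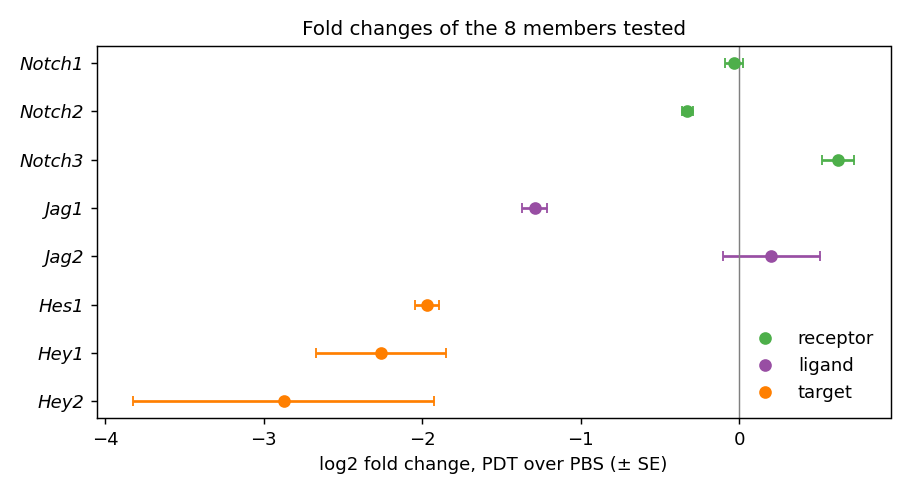
Log2 fold change, PDT over PBS, with its SE (bars) for the 8 tested members, coloured by role as receptor, ligand or target (n = 3 libraries per group). Hes1, Hey1 and Hey2 lie between -2.88 and -1.97, Jag1 lies at -1.29, and the receptors lie between -0.33 and 0.62.

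Whether the groups overlap was counted in the same way over all genes. No overlap between the groups was seen for 6 of the 8 tested members, against 49.0% of all tested genes. All PDT libraries were above all PBS libraries for Notch3 (25.6% of all genes), and they were below for the other 5 (23.4% of all genes). Hes1 and Jag1 were known to be lower when the set was chosen, and Hey1 and Hey2 passed the filter through PBS libraries. Nothing is therefore read from these counts of members. The median log2 fold change was -0.81 over the 8 tested members and 0.01 over all tested genes, and the first follows from the choice of the members.

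Levels of different genes were compared per kb of the longest protein-coding transcript of each. In PDT libraries Notch2 stood first with 7.02 ± 0.11 CPM per kb, followed by Notch1 with 4.598 ± 0.035, Hes1 with 4.27 ± 0.35 and Jag1 with 4.26 ± 0.26. In PBS libraries Hes1 stood first with 16.7 ± 0.60 CPM per kb, followed by Jag1 with 10.4 ± 1.14, Notch2 with 8.80 ± 0.13 and Notch1 with 4.71 ± 0.34. The PBS libraries gave the same order of these 4 genes with no overlap between neighbours. In the PDT libraries the ranges of Notch1 and Hes1 overlapped, as did those of Hes1 and Jag1, so their order there is not resolved.

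The other members were at least several-fold rarer per kb. Notch3 had 0.806 ± 0.070 CPM per kb in PDT and 0.523 ± 0.020 in PBS, and it ranked next in both groups. Below it came Jag2 (0.109 ± 0.004 in PDT, 0.0950 ± 0.0352 in PBS), Hey1 (0.0445 ± 0.0180 in PDT, 0.214 ± 0.043 in PBS) and Hey2 (0.0104 ± 0.0180 in PDT, 0.0817 ± 0.0256 in PBS). Jag2 exceeded Hey1 in every PDT library, and Hey1 exceeded Jag2 in every PBS library. The ranges of Jag2 and Hey2 in PBS and those of Hey1 and Hey2 in PDT overlapped.

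**Figure D3:**
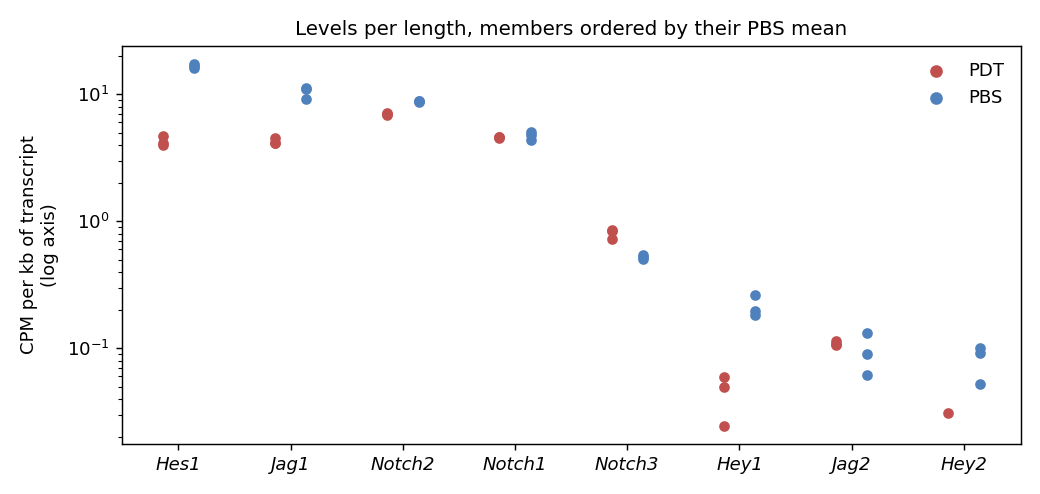
Levels per kb of transcript (CPM per kb, log axis) of the 8 tested members in PDT and PBS libraries, ordered by their PBS mean, with 1 point per library. Libraries at 0 are not drawn, which leaves 1 PDT point for Hey2. Hes1 and Jag1 lead in PBS at 16.7 and 10.4 CPM per kb on average, and average 4.27 and 4.26 CPM per kb in PDT.

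The makeup of the receptor pool was described by the share of each receptor in their summed level per kb. Notch2 made up 56.5 ± 0.63% in PDT and 62.7 ± 1.14% in PBS, Notch1 made up 37.0 ± 0.57% in PDT and 33.5 ± 1.37% in PBS, and Notch3 made up 6.49 ± 0.53% in PDT and 3.73 ± 0.24% in PBS. The ranges of the groups did not overlap for any of these shares. Shares add up to a fixed total, so that of Notch1 was higher in PDT although its level was not. The summed level of the receptors was 12.3 to 12.5 CPM per kb in PDT libraries and 13.5 to 14.5 CPM per kb in PBS libraries. Between the Jagged ligands, Jag1 held 97.3% to 97.7% of the summed level per kb in PDT libraries and 98.6% to 99.5% in PBS libraries.

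**Figure D4:**
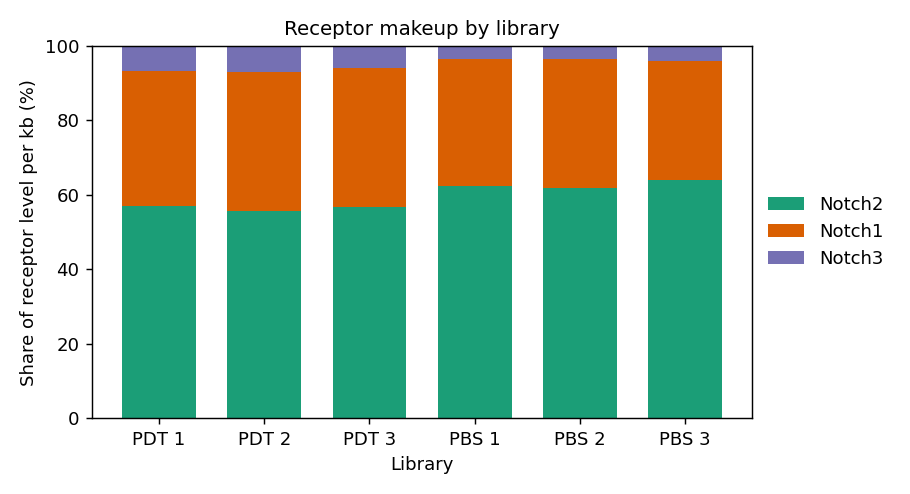
Share (%) of Notch2, Notch1 and Notch3 in the summed receptor level per kb of transcript, in each PDT and PBS library. Notch3 takes 5.89% to 6.89% in PDT libraries and 3.56% to 4.01% in PBS libraries.

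Among 10120 named genes whose mean log2 CPM was 2 or more, those whose log2 CPM followed Hes1 most closely over the 6 libraries were Tll1, a procollagen-processing protease, Sulf1, a heparan sulfate sulfatase, and Fbln2, the matrix protein fibulin 2. Their Pearson r with Hes1 was 0.9991, 0.9990 and 0.9990. For Jag1 they were Btbd9, Ltbp2, a latent TGF-β binding protein homologue, and Lama5, a laminin chain, with r of 0.9997, 0.9997 and 0.9995. These values describe libraries of 2 separate groups, so any gene with a clear difference scores high, and 184 genes exceeded 0.99 for Hes1 and 152 for Jag1.

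Beyond the members, 68 other genes of the pathway were listed by role, of which 60 were tested. Of these, 17 rose and 21 fell in PDT, which is 63.3% called against 36.1% of all tested genes, and their median log2 fold change of 0.00 lay beside 0.01 for all genes. With scaling by library size only the split was 19 higher and 14 lower, and over all genes it was 4290 higher and 2517 lower in place of 3294 and 3078. Without PDT replicate 1, 25 were called, 11 higher and 14 lower, and the counts were the same without PDT replicate 2. A stricter filter asked for at least 10 counts in at least 3 libraries and a mean CPM of at least 1. Under it, 33 of 56 listed genes were called, against 6155 of 12831 over all genes. The list was chosen with earlier results of these data known, so nothing is read from its share. Adjusted p-values below are from edgeR's quasi-likelihood test with Benjamini-Hochberg adjustment over all genes.

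Of 7 other ligands and receptors 4 were tested, of which 2 rose and 1 fell. Notch4, a receptor of endothelial cells, was rare, with 28, 31 and 43 counts in PDT libraries and 12, 7 and 16 in PBS libraries. In CPM these were 0.312, 0.308 and 0.427 in PDT, against 0.141, 0.0856 and 0.196 in PBS. It rose by 1.30 ± 0.41 on the log2 scale (adjusted p = 0.0335), a call that ended with DESeq2 (adjusted p = 0.0544), without a filter (0.0521) and without any 1 library other than PBS replicate 3 (0.0673 to 0.107). The canonical ligand gene Dll1 rose by 0.58 ± 0.19 to 1.03 ± 0.08 CPM in PDT, against 0.692 ± 0.010 CPM in PBS (adjusted p = 0.0387). That call ended under several alternatives, among them DESeq2 (0.101), limma-voom (0.0554), length and GC offsets (0.0662) and without any 1 library other than PDT replicate 3 (0.0779 to 0.123). Dlk2, a Delta-like protein without the receptor-binding domain of canonical ligands, fell 2.56-fold to 1.33 ± 0.22 CPM in PDT, against 3.42 ± 0.45 CPM in PBS (adjusted p = 0.000267). The related Dlk1 had 0 counts in every library, and the vascular ligand gene Dll4 had 20 counts over all 6 libraries and was not tested.

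Of 14 genes that modify and cut the receptor 13 were tested, of which 5 rose and 3 fell, with log2 fold changes from -0.60 to 0.60. Lfng, a fringe glycosyltransferase that adds sugars to Notch and alters its response to ligands, fell 1.52-fold to 9.86 ± 0.76 CPM in PDT, against 14.98 ± 0.88 CPM in PBS (adjusted p = 0.000379), and its relative Mfng had 0 counts in every library. The γ-secretase genes Psen2 and Psenen rose by 0.60 ± 0.10 and 0.28 ± 0.06 (adjusted p = 0.00131 and 0.00634), and the second was 0.09 with length and GC offsets (adjusted p = 0.199). Adam17, a protease that can cut the receptor, rose by 0.17 ± 0.04 (adjusted p = 0.0057).

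Of 16 genes of endocytosis and turnover 15 were tested, of which 4 rose and 5 fell. Dtx4, a Deltex ubiquitin ligase, had 17.7, 16.5 and 17.3 CPM in PDT libraries, against 7.62, 6.53 and 6.66 CPM in PBS libraries. Each PDT library was more than double each PBS library, and the gene rose 2.47-fold (log2 1.31 ± 0.08, adjusted p = 2.45e-06). Neurl1a, a Neuralized ubiquitin ligase, fell by 0.96 ± 0.17 to 1.62 ± 0.27 CPM in PDT, against 3.17 ± 0.43 CPM in PBS (adjusted p = 0.0018). Itch, a ubiquitin ligase that acts on Notch, and Numb, an adaptor that inhibits Notch, fell by 0.26 ± 0.03 and 0.23 ± 0.04 (adjusted p = 0.000321 and 0.00298), and Itch was at -0.08 with length and GC offsets (adjusted p = 0.123).

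In the nuclear complex and among corepressors all 18 listed genes were tested, of which 2 rose and 7 fell. Rbpj, the DNA-binding partner of the Notch intracellular domain, rose 1.17-fold to 120 ± 3.60 CPM in PDT, against 102 ± 1.90 CPM in PBS (adjusted p = 0.0013). The Mastermind coactivator gene Maml2 fell by 0.49 ± 0.05 to 46.8 ± 1.77 CPM in PDT, against 65.9 ± 2.32 CPM in PBS (adjusted p = 3.94e-05). The histone demethylase gene Kdm5a, whose product can join RBPJ repressor complexes, fell by 0.32 ± 0.04 (adjusted p = 0.000134), and it was at -0.04 with length and GC offsets (adjusted p = 0.535).

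Of 5 other HES genes 2 were tested, and Hes3 and Hes5 had 0 counts in every library. Hes6, which is not a typical Notch target, was at 27.3 ± 0.72 CPM in PDT and 24.7 ± 0.64 CPM in PBS (log2 fold change 0.15 ± 0.05, adjusted p = 0.0457), and the call ended under 10 alternatives, among them length and GC offsets, where the log2 fold change was 0.00. Genes reported as Notch targets in some cell types went in both directions, 3 of 8 higher and 5 lower. Ccnd1 (cyclin D1) and Myc rose by 0.47 ± 0.04 and 0.55 ± 0.05 (adjusted p = 1.6e-05 and 4.13e-05). Sox9 and Pdgfrb, the PDGF receptor β, fell by 0.45 ± 0.04 and 0.25 ± 0.04 (adjusted p = 2.14e-05 and 0.000457).

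**Figure D5:**
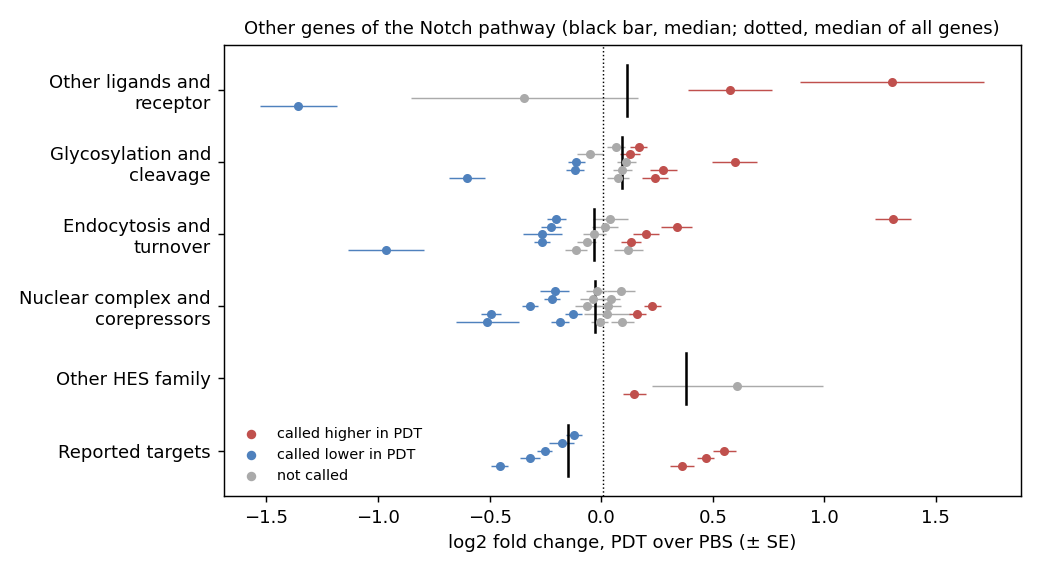
Log2 fold change, PDT over PBS, with its SE (bars) for the 60 tested genes of the wider list, by role (n = 3 libraries per group). Red and blue points were called higher and lower in PDT, grey points were not called, black bars are medians of each role and the dotted line is the median of all genes. Dtx4 and Notch4 lie furthest to the right at 1.31 and 1.30, and Dlk2 furthest to the left at -1.36.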

How the data were processed

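RNA sequencing counts were analysed for 6 libraries. The deposited table holds whole-number counts per gene symbol and sample, not normalised. Per the labels' protocols, libraries came from a directional kit after removal of ribosomal RNA. The tools named, per the submitters' processing notes, are STAR 2.7.11b and cutadapt 4.6, with build GRCm39. The sources used here do not give the counter, the annotation or the use of strand. An annotated noncoding gene lies opposite Notch1 and held 391 counts in PDT and 378 in PBS.

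Groups came from the treatment label. Every pair of libraries differed by more than sampling noise, with a chi-square of 11.0 or more per degree of freedom. Counts were filtered by filterByExpr (default settings), scaled by TMM and tested on group alone with glmQLFTest of edgeR 4.0.16 (R 4.3.3), with a threshold of 0.05 on Benjamini-Hochberg adjusted p. The SE is the fold change divided by the square root of F. Log2 CPM used a prior count of 2. Transcript lengths and GC content came from GENCODE M21, an earlier build, and covered 92.7% of tested genes. Alternatives were RLE or no scaling, DESeq2 1.42.0, voom of limma 3.58.1, other filters, a replicate block, length and GC offsets (mgcv 1.9.3) and leaving out each library. The procedure was also run on simulated counts. These had the same biological spread for every gene and far fewer changed genes than were called here. That run checked the code and not the calls above.

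The members, lists and alternatives were chosen with earlier results of these data known. Named genes were all members, up to 4 called genes with the lowest adjusted p per role, genes with at most 3 counts in all, and the 3 genes most like Hes1 and Jag1. Dll4 was named after its values were seen. A gene that this rule selects is not reported here.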

Additional observations from a re-analysis of the deposited data

How the results depend on the processing

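The alternatives changed the scaling, the test, the low-count filter, the replicate block, length and GC offsets, and the libraries used. Counts of called genes stayed within 1.5 times the reported value, except for the wider pathway list, where 25 were called without PDT replicate 1 and also without PDT replicate 2 in place of 38. With 1 library left out, calls ran from 4755 to 6877 over all genes, from 25 to 37 in the wider list and from 5 to 6 among the members. Of 108 values of single members, 98 kept their direction and side of the threshold, 6 lost the call (all of Hey2) and 4 reversed: Notch1 at 0.014 with library size only, 0.053 with length and GC offsets and 0.011 without PBS replicate 2, and Jag2 at -0.029 without PBS replicate 1. Over left-out libraries Notch1 ran from -0.091 to 0.011 and Jag2 from -0.029 to 0.51. The cause was not tested. For the wider list, single values were taken only for the 20 called genes with the lowest adjusted p per role. Of their 278 values, 249 kept their call, 29 lost it and 0 reversed. These genes were picked by the same data, so this does not describe the other genes of the list. With the replicate block, 6067 genes, 36 of the wider list and 6 members were called. Deviations of same-numbered libraries correlated with r of -0.012, 0.014 and 0.005, so no deviation shared by same-numbered libraries was seen. Whether the samples were paired is not known. Among the named genes, the calls of Dll1 and Hes6 ended with the block (adjusted p = 0.0786 and 0.0806 by edgeR). Counts were low for Jag2, Hey1, Hey2, Nrarp and Notch4. The stricter filter gave no values for Jag2, Hey1, Hey2, Notch4 and Dll1. DESeq2 gave no adjusted p for Hey2.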

Other observations

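Tle2, a Groucho-type corepressor, and Dtx3, a Deltex relative, were named after their values were seen. PDT replicate 3 lay nearer the PBS libraries than the other PDT libraries did for both genes. The same was seen over the tested genes together. There the chi-square per degree of freedom against PBS libraries was 145 to 149 for PDT replicate 3, and 165 to 189 for PDT replicates 1 and 2. Tle2 had 43.9, 41.6 and 63.0 CPM in PDT libraries, against 78.9, 64.8 and 68.0 CPM in PBS libraries. Dtx3 had 41.9, 41.5 and 53.1 CPM in PDT libraries, against 57.6, 53.8 and 52.6 CPM in PBS libraries.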
